A study of Mus musculus with 6 samples.

Results

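The transcription factor p53, encoded by Trp53, and 6 of its target genes, Mdm2, Ccng1, Trp53inp1, Bax, Pmaip1 and Gdf15, were followed in mouse embryonic stem cells lacking Mettl5 and in wild-type cells. The genes were picked by symbol, and all 7 were among the 9093 genes of the deposited table. The groups were Mettl5 knockout (KO) cells, made by CRISPR/Cas9 editing, and wild-type (WT) cells, both from a cross of 129Sv females with C57BL/6 males carrying BVSC. Both grew in N2B27 medium that holds cells in the naive state, which contained leukemia inhibitory factor (1000 U per ml), the MEK inhibitor PD0325901 (1 µM) and the GSK3 inhibitor CHIR99021 (3 µM). Ribosome-protected fragments (footprints) were measured in 2 KO and 2 WT libraries, and input mRNA in 1 library of each genotype. The labels do not say whether the KO cells were 1 clone, nor whether the libraries of a genotype came from separate cultures, so the p-values cover the spread between libraries, and this may be technical.

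Mettl5 methylates 18S ribosomal RNA. In unstressed cells p53 is kept low by Mdm2, a ubiquitin ligase that marks it for destruction, and by the related inhibitor Mdm4. When DNA is damaged or ribosome assembly is disturbed, p53 accumulates and switches on genes that stop the cell cycle, repair DNA or start apoptosis. It also switches on Mdm2, which closes a feedback loop.

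Because p53 binds paired copies of a short motif, the DNA ahead of its targets is shown with its matches. The 250 bases before the start of each promoter entry were taken from RefSeq (GRCm38.p6) for the 5 members with an entry. Except for Mdm2, this start lay inside the gene span given below. Distances count from this start and not from the edge of the span. Each was searched on both strands for the p53 half-site consensus of 10 letters, which is its own reverse complement. The full site of 20 letters, made of 2 half-sites without a spacer, was searched with at most 2 mismatches and none at the core C and G of either half-site. An exact half-site lay ahead of 4 of the 5 genes, against 7.13% of 32851 windows of this length. A full site lay only ahead of Ccng1 among the 5, with 1 mismatch, 195 to 176 bases before the start, against 0.271% of all windows. Capitals mark the full site in Ccng1, which contains its half-site, and the half-site in the other 3.
Ccng1, chr11:40755287-40755536, minus strand: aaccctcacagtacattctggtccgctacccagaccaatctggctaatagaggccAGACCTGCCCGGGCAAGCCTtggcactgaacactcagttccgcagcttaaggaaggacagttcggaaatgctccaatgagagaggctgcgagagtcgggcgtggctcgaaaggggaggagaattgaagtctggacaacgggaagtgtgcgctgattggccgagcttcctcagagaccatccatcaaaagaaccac
Mdm2, chr10:117710759-117711008, minus strand: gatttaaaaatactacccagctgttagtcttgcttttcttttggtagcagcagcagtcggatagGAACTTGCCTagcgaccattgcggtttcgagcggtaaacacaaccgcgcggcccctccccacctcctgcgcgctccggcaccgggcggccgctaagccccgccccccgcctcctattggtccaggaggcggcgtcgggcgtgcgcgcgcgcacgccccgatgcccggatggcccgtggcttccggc
Bax, chr7:45466899-45467148, minus strand: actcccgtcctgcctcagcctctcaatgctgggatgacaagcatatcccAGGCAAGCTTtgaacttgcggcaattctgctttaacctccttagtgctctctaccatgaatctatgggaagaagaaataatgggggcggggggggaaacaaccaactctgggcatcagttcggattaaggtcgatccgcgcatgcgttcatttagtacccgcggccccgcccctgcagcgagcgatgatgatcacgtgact
Trp53, chr11:69580109-69580358, plus strand: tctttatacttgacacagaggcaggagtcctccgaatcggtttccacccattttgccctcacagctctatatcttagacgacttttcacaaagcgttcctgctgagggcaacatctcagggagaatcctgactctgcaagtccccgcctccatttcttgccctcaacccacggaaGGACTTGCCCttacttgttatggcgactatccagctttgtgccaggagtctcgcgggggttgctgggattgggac
Neither of the 2 windows of Gdf15 held an exact half-site. The matches describe letters only. The Mdm2 window lies ahead of the outer promoter, whereas the promoter known to respond to p53 lies inside the gene.

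Footprint libraries held 2060010 and 3472613 reads in KO and 3524739 and 8675267 in WT, and input libraries 15931259 in KO and 17912908 in WT. The targeted gene, Mettl5, had footprints of 9.71 and 11.2 CPM in KO and 123 and 127 CPM in WT, where CPM is reads per 1000000 reads of the library. All 8 listed stem cell markers were measured and summed to 4642 and 4599 CPM in KO and 4152 and 4159 CPM in WT in footprints. By the edgeR test given below, 5 of them rose (62.5%), where 18.3% of all genes did. Tfcp2l1 alone fell (12.5%, log2 change of -0.18 ± 0.04), where 16% of all genes did. Their median log2 change was 0.30, and 0.04 once the median of each gene's chromosome was taken off. The fibroblast collagen gene Col1a1 had 7.28 and 5.18 CPM in KO and 293 and 299.9 CPM in WT. The 4 measured fibroblast markers of 12 summed to 3105 and 3123 CPM in KO and 3129.9 and 3127 CPM in WT. Of these 4, Col1a1 (-5.61 ± 0.13, log2 change), Col5a1 (-1.99 ± 0.19) and Fbln2 (-1.62 ± 0.22) fell, while Fn1, which had the most footprints, rose (0.18 ± 0.03). The 5 measured endoderm markers of 11 were Lamb1, Sparc, Col4a1, Col4a2 and Lama1. They summed to 1836 and 1894 CPM in KO and 3220.4 and 3222 CPM in WT. None of these measured markers was at 0. The other listed ones, with the endoderm markers Gata4, Sox17 and Foxa2 among them, were not among the 9093 genes analysed. The part of these shifts in the values below was not tested, and in bulk samples fewer cells of a type and less RNA per cell cannot be told apart.

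The first comparison asked how footprints of p53 and its targets differed between KO and WT cells. Footprints of Trp53 and of 4 targets, Mdm2, Ccng1, Trp53inp1 and Bax, fell in KO cells, while those of Pmaip1 and Gdf15 rose. The fall was 1.61-fold for Mdm2, 1.80-fold for Ccng1 and 1.85-fold for Trp53inp1, but 1.23-fold for Trp53 and 1.09-fold for Bax. The rise was 1.85-fold for Pmaip1 and 1.73-fold for Gdf15. By edgeR, at an adjusted p below 0.05, 5 of 7 members were called lower and 2 higher, where 16% of all 9093 genes were called lower, 18.3% higher and 34.4% in either direction. The median log2 change was -0.29 over the members and -0.000268 over all genes.

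**Figure D1:**
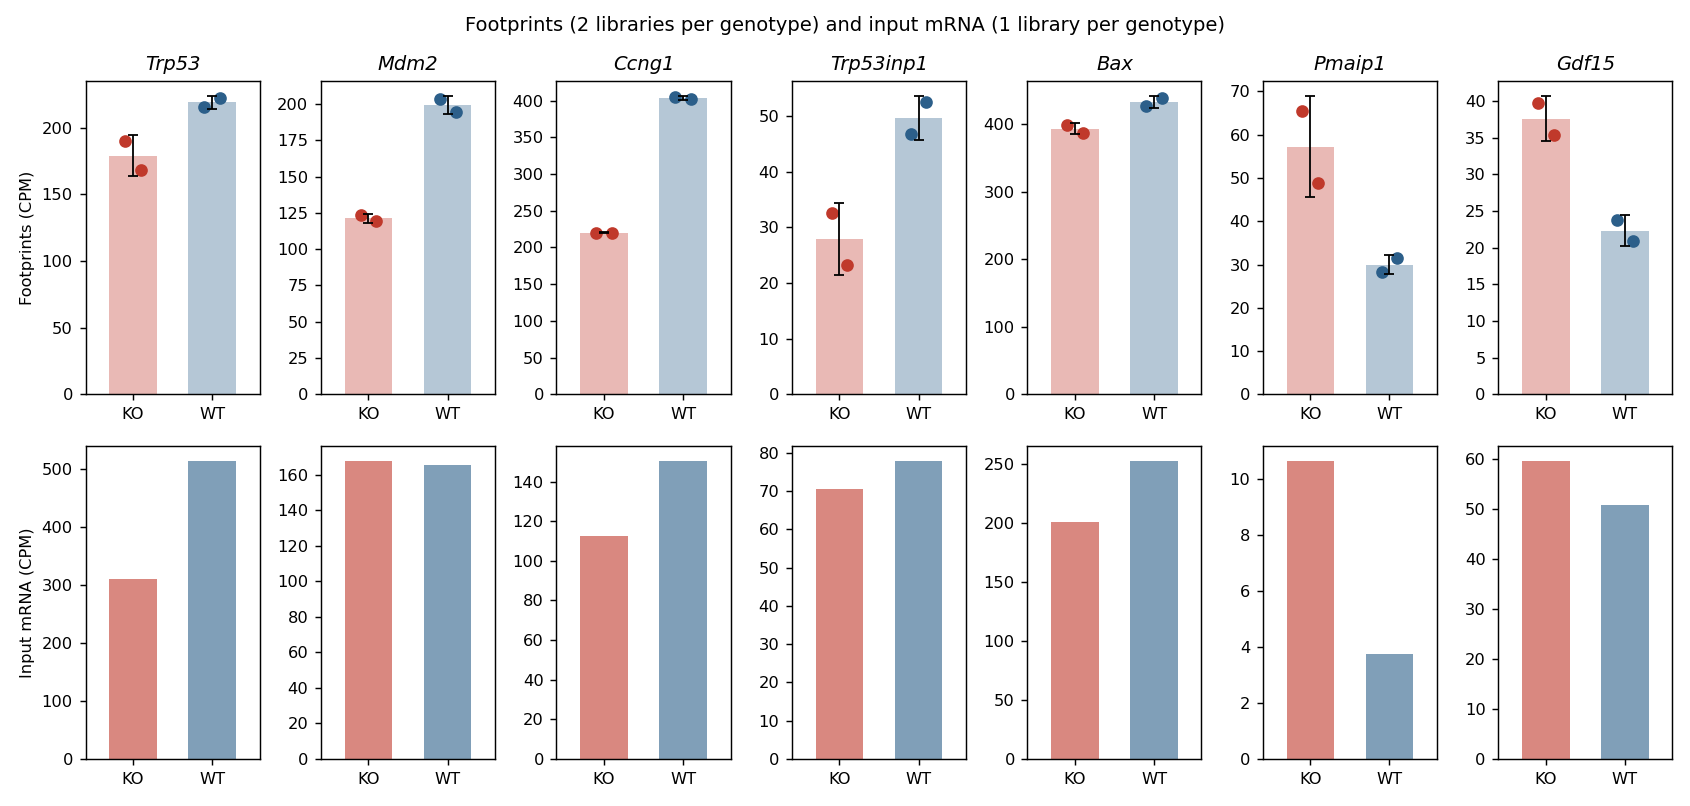
Footprints (top row, CPM) and input mRNA (bottom row, CPM) of each gene in KO (left, red) and WT (right, blue) libraries. In the top row points are libraries, bars are means and error bars are the SD of 2 libraries, and in the bottom row each bar is 1 library. KO and WT footprint libraries do not overlap for any of the 7 genes, as for 64.6% of all genes. Input of Mdm2 is nearly level, at 168 CPM in KO and 165 CPM in WT.

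Trp53 (ENSMUSG00000059552.13, chromosome 11, 69580348 to 69591873 in mm10) had footprints of 189.8 and 168 CPM in KO and 216 and 223 CPM in WT, from 391 and 584 reads in KO and 761 and 1931 in WT. Both KO libraries were below both WT libraries, the second KO library most. The log2 change was -0.29 ± 0.06 (SE, n = 2 per genotype, edgeR adjusted p = 2.08e-05). Without the second KO library it was -0.20 and the call was lost (edgeR adjusted p = 0.0783). RefSeq also lists a Trp53 pseudogene, Trp53-ps, with which reads may be shared, so the Trp53 values are uncertain to that extent.

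Mdm2 (ENSMUSG00000020184.15, chromosome 10, 117688875 to 117710758), the ligase that restrains p53, had 123 and 119 CPM in KO and 204 and 195 CPM in WT. The libraries of a genotype were close, and the groups lay far apart. The log2 change was -0.69 ± 0.07 (SE, n = 2 per genotype, edgeR adjusted p = 4.99e-21). Mdm4, the other p53 inhibitor of this family, fell as well, with 51.9 and 54.1 CPM in KO and 78.9 and 77.9 CPM in WT (log2 change of -0.53 ± 0.11, edgeR adjusted p = 6.79e-06).

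Ccng1 (ENSMUSG00000020326.7, chromosome 11, 40748552 to 40755309), which encodes cyclin G1, a partner of protein phosphatase 2A that acts on Mdm2, had 219.9 and 220.3 CPM in KO and 405 and 401 CPM in WT. Its replicates were the tightest of the 7 genes, with an SD of 0.126% of the mean in KO and 0.689% in WT. The log2 change was -0.85 ± 0.05 (SE, n = 2 per genotype, edgeR adjusted p = 1.21e-55). Log2 ratios of single KO over single WT libraries, before TMM scaling, ranged from -0.88 to -0.87.

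Trp53inp1 (ENSMUSG00000028211.11, chromosome 4, 11156441 to 11174379), which promotes autophagy and p53-dependent cell death, had 32.5 and 23.3 CPM in KO and 46.8 and 52.4 CPM in WT. It was read shallowly, with 67 and 81 reads in KO and 165 and 455 in WT. Its KO libraries differed from each other more than those of any other member, with an SD of 23.3% of the mean, yet both were below both WT libraries. The log2 change was -0.88 ± 0.14 (edgeR adjusted p = 1.26e-08), and single KO over WT library ratios ranged from -1.17 to -0.53.

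The apoptosis and stress signal genes went in both directions. Bax (ENSMUSG00000003873.11, chromosome 7, 45461695 to 45466903), which forms pores in the outer mitochondrial membrane, had 399 and 388 CPM in KO and 427 and 439.5 CPM in WT. Its log2 change of -0.12 ± 0.05 was small (edgeR adjusted p = 0.0221). The call was lost with DESeq2 (adjusted p = 0.257), without the second KO library (edgeR adjusted p = 0.229) and without the second WT library (edgeR adjusted p = 0.238).

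Pmaip1 (ENSMUSG00000024521.7, chromosome 18, 66458604 to 66465558), which encodes Noxa, a BH3-only protein that binds and inactivates Mcl1, had 65.5 and 49.0 CPM in KO and 28.4 and 31.6 CPM in WT. Both KO libraries were above both WT libraries, and the first KO library was the highest. The log2 change was 0.89 ± 0.13 (SE, n = 2 per genotype, edgeR adjusted p = 6.19e-10). Mcl1 itself, a survival protein, fell, with 338 and 325 CPM in KO and 425 and 421 CPM in WT (log2 change of -0.33 ± 0.05, edgeR adjusted p = 5.86e-11).

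Gdf15 (ENSMUSG00000038508.7, chromosome 8, 70629393 to 70632470), a secreted stress cytokine that is also a target of the stress factors Atf4 and Chop, had 39.8 and 35.4 CPM in KO and 23.8 and 20.9 CPM in WT. Again both KO libraries were above both WT libraries. The log2 change was 0.79 ± 0.16 (SE, n = 2 per genotype, edgeR adjusted p = 7.91e-06), from 82 and 123 reads in KO and 84 and 181 in WT.

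Footprints of KO and WT libraries did not overlap for 7 of 7 members, as for 64.6% of all genes, so this separation is not particular to them. Footprint changes differed between chromosomes, with medians (log2) of 0.39 on chromosome 8, 0.31 on chromosome 6, -0.19 on chromosome 11 and -0.25 on chromosome 16. Medians of the other autosomes and the X lay between -0.04 and 0.05. Of the members, Trp53 and Ccng1 lie on chromosome 11 and Gdf15 on chromosome 8. Less the chromosome median, the log2 change was -0.11 for Trp53, -0.66 for Ccng1 and 0.40 for Gdf15.

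The rank of each gene on its own chromosome is given as a description, with no test. For Trp53, 241 of 772 genes of chromosome 11 had a lower change, whereas for Ccng1 22 did. For Gdf15, 41 of 522 genes of chromosome 8 had a higher change. Pmaip1 was exceeded by 2 of 218 genes on chromosome 18. Mdm2 had 13 of 437 genes of chromosome 10 below it, and Trp53inp1 had 13 of 615 on chromosome 4. Bax had 230 of 690 genes of chromosome 7 below it.

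**Figure D2:**
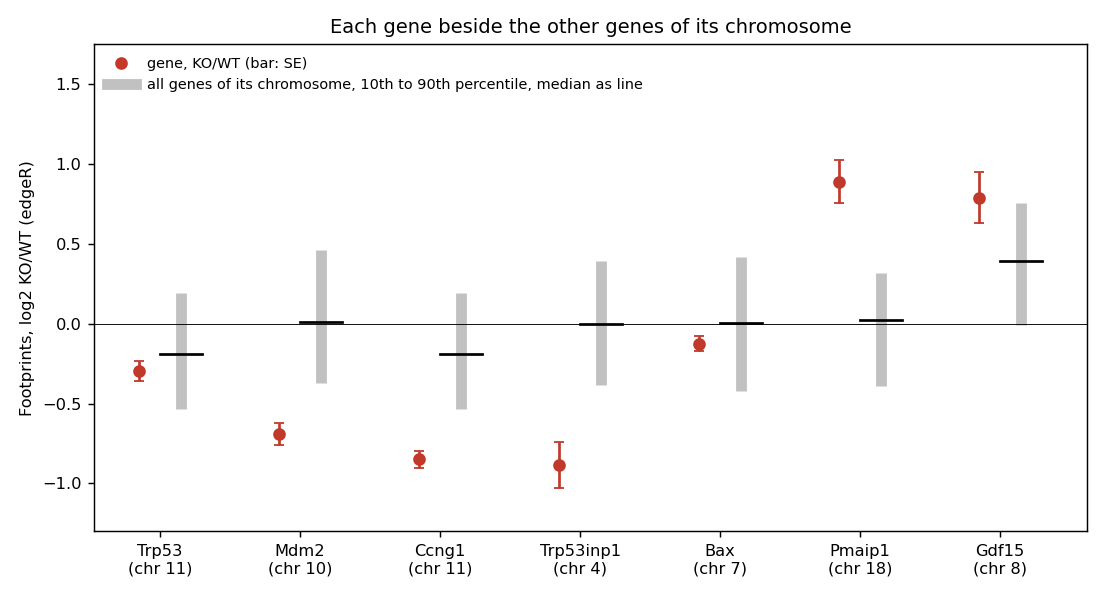
Footprint log2 change (KO over WT) of each gene (red point, bar: SE) beside all genes of its chromosome (grey bar: 10th to 90th percentile, black line: median). Trp53 and Bax lie inside the grey bars, Gdf15 lies just above its bar, and Mdm2, Ccng1, Trp53inp1 and Pmaip1 lie farther outside.

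Input mRNA was read in 1 KO and 1 WT library, and its differences have no replicate check. Trp53 mRNA was lower in the KO library, at 310.0 CPM in KO and 514 CPM in WT, and Pmaip1 mRNA was higher, at 10.7 CPM in KO and 3.74 CPM in WT. These were the 2 members past 1.5-fold, 1 in each direction, where 15.1% of all genes were past it upward, 6.17% downward and 21.2% in either direction. The log2 ratio, with 1 CPM added and a 95% interval for counting error only, was -0.73 (-0.78 to -0.68) for Trp53 and 1.30 (0.96 to 1.64) for Pmaip1. The Pmaip1 value rests on 170 KO and 67 WT reads and was 0.84 with 5 CPM added. Less the median of its chromosome, the log2 ratio was -0.49 for Trp53, short of 1.5-fold, and 1.08 for Pmaip1.

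The other members differed less in input. Mdm2 had 168 CPM in KO and 165 CPM in WT, a log2 ratio of 0.02 (-0.05 to 0.10). Ccng1 had 112 CPM in KO and 151 CPM in WT, a log2 ratio of -0.42 (-0.50 to -0.33), and lies on chromosome 11, whose median ratio was -0.24. Bax had 200.2 CPM in KO and 253 CPM in WT, a log2 ratio of -0.33 (-0.40 to -0.27). For these 3 genes the level was thus near equal (Mdm2) or lower in KO. Trp53inp1 had 70.4 CPM in KO and 78.0 CPM in WT, a log2 ratio of -0.15 (-0.26 to -0.03). Gdf15 had 59.6 CPM in KO and 50.7 CPM in WT, a log2 ratio of 0.23 (0.10 to 0.36), against a median of 0.31 for the genes of chromosome 8. The median over all genes was 0.05.

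**Figure D3:**
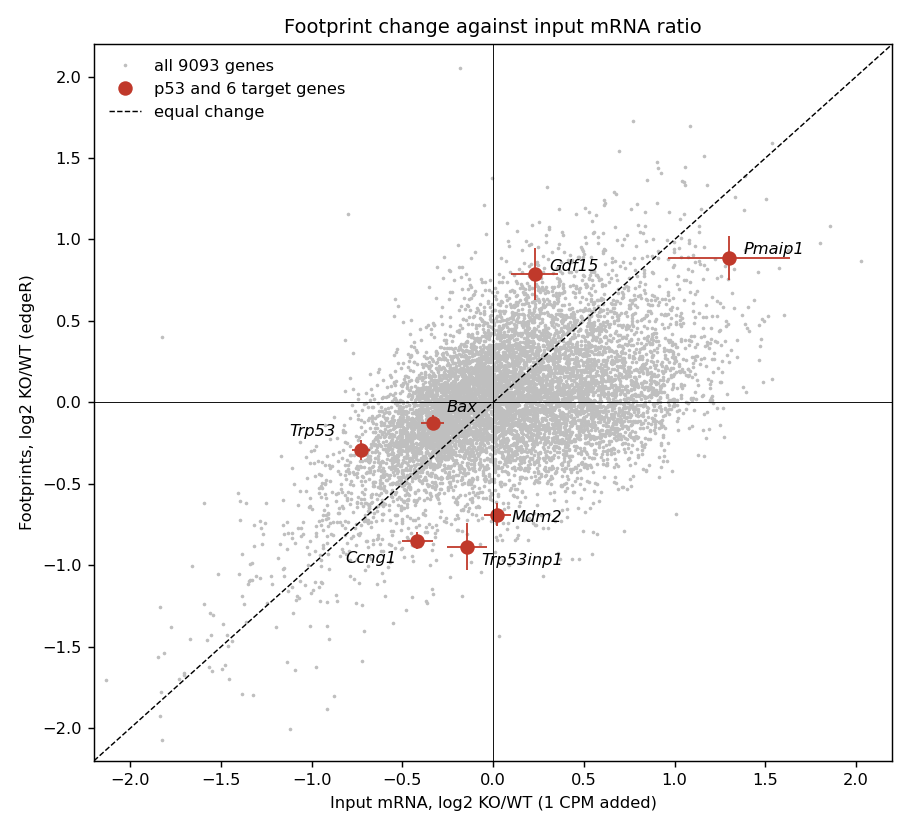
Footprint log2 change (y axis, bars: SE) against input log2 ratio with 1 CPM added (x axis, bars: 95% counting interval), KO over WT, for the 7 genes (red) and all genes (grey). Mdm2, Ccng1, Trp53inp1 and Pmaip1 lie below the dashed line of equal change, and Trp53, Bax and Gdf15 lie above it.

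The second comparison asked whether footprints changed beyond input mRNA, that is, in translational efficiency (TE), the ratio of footprint to input CPM. TE rose for Trp53 and fell for Mdm2 and Ccng1, and the other 4 members did not pass the test. By limma on log2(CPM + 1), 1 member was called higher and 2 lower, where 4.88% of all genes were called higher, 12.8% lower and 17.7% in either direction. The median log2 change in TE was -0.40 over the members and -0.03 over all genes.

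In the authors' deposited table the TE of Trp53 was 0.612 and 0.542 in KO and 0.420 and 0.433 in WT. Both KO values lay above both WT values. The TE change on the log2(CPM + 1) scale was 0.43 ± 0.10 (SE, limma adjusted p = 0.00429), with footprints lower by less than input.

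For Mdm2 the authors' deposited table gave a TE of 0.734 and 0.709 in KO and 1.23 and 1.18 in WT, a change of -0.73 ± 0.11 (limma adjusted p = 6.47e-05). For Ccng1 the authors' deposited table gave a TE of 1.96 and 1.96 in KO and 2.69 and 2.67 in WT, a change of -0.45 ± 0.10 (limma adjusted p = 0.00157). For both genes all KO values were below all WT values. The fall of Mdm2 came with level input mRNA, and that of Ccng1 with input that was lower by less than its footprints.

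The 4 members that did not pass had TE values of the following size. Trp53inp1 had 0.462 and 0.331 in KO and 0.60 and 0.673 in WT in the authors' deposited table, a change of -0.68 ± 0.25 (limma adjusted p = 0.0616). Bax had 1.99 and 1.94 in KO and 1.69 and 1.74 in WT in the authors' deposited table, a change of 0.19 ± 0.08 (limma adjusted p = 0.109). KO and WT values of the deposited TE did not overlap for any of the 7 members, as for 71.7% of all genes. Pmaip1 had 6.14 and 4.59 in KO and 7.59 and 8.44 in WT in the authors' deposited table, a change of -0.40 ± 0.32 (limma adjusted p = 0.438) that was -0.02 with 5 CPM added in place of 1 and -0.57 with 0.1 CPM. Gdf15 had 0.668 and 0.594 in KO and 0.470 and 0.411 in WT in the authors' deposited table, a change of 0.50 ± 0.25 (limma adjusted p = 0.19).

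**Figure D4:**
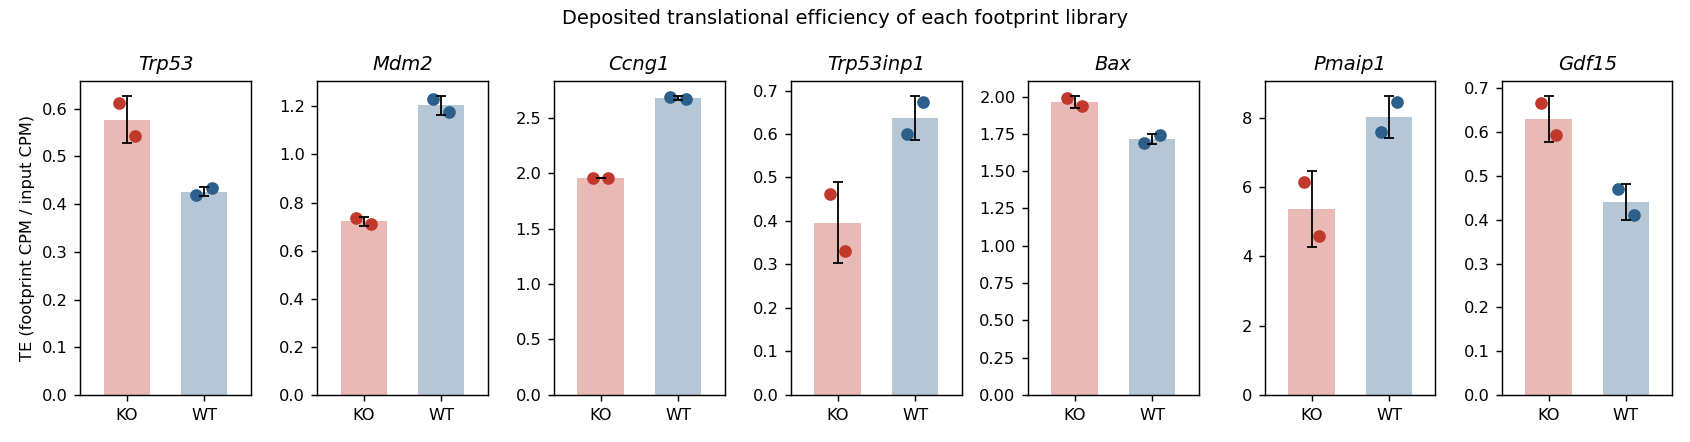
TE as deposited by the authors, footprint CPM over input CPM, of each gene in KO (left, red) and WT (right, blue). Points are footprint libraries, bars are means and error bars are the SD of 2 libraries that share 1 input library. Trp53, Bax and Gdf15 are higher in KO, and Mdm2, Ccng1, Trp53inp1 and Pmaip1 are lower in KO.

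All residual spread in the TE fit came from footprints. With an added spread of 0.2 (log2) for each input library none of the 3 TE calls remained (limma adjusted p = 0.82 for Trp53, 0.477 for Mdm2 and 0.795 for Ccng1). The p-values of the authors' deposited table, adjusted by Benjamini-Hochberg, called Ccng1 alone of the 7 (adjusted p = 0.0468, against 0.149 for Trp53 and 0.057 for Mdm2). The TE calls given below for single genes outside the members were among 17 checked in the same way. The added spread left 0 of these 17 called, and the authors' adjusted p-values left 2.

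Within a genotype, mean TE in the authors' deposited table was highest for Pmaip1, at 5.36 in KO and 8.01 in WT. Bax and Ccng1 followed, at 1.96 and 1.96 in KO, where their libraries overlapped, and at 1.72 and 2.68 in WT, where they did not. Mdm2 stood next, at 0.722 in KO and 1.20 in WT. The lowest values in KO were those of Gdf15 (0.631), Trp53 (0.577) and Trp53inp1 (0.397), and in WT those of Trp53inp1 (0.636), Gdf15 (0.440) and Trp53 (0.426). Libraries of Gdf15 and Trp53 overlapped in both genotypes. TE sets footprints, which come mostly from coding sequence, against reads of whole mRNAs, so its order between genes also depends on how much of each mRNA is coding.

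Of 59 further p53 target genes 45 were measured. Footprints rose for 8 of them (17.8%), fell for 15 (33.3%) and passed in neither direction for 22, where 18.3% of all genes rose and 16% fell. The median log2 change over these target genes was -0.14. Plk2, a polo-like kinase, had the lowest change, with 27.2 and 26.8 CPM in KO and 76.6 and 72.0 CPM in WT (log2 change of -1.43 ± 0.13, edgeR adjusted p = 4.60e-26). Zfp365 (-1.07 ± 0.23), the carbonyl reductase gene Dcxr (-0.93 ± 0.09, on chromosome 11) and Def6 (-0.87 ± 0.19) fell as well, and so did Zmat3, a zinc finger RNA-binding protein (-0.57 ± 0.12). Among the rises were Hspa4l (0.85 ± 0.30), Rrm2b, a ribonucleotide reductase subunit that supplies DNA repair (0.68 ± 0.23), Cgref1 (0.68 ± 0.21) and Tigar, which lowers glycolytic flux (0.61 ± 0.06, on chromosome 6). Hspa4l rested on few reads, 26 and 19 in KO and 17 and 39 in WT, and leaving out 1 library moved it between 0.28 (first KO left out) and 1.47 (second KO left out). The same step moved Cgref1 between 0.39, without the second KO library, and 0.84. The calls of Zfp365 (second KO), Hspa4l (first KO or second WT), Rrm2b (second KO or first WT) and Cgref1 (second KO or second WT) were lost without the library named.

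Cdkn1a, which encodes the cell cycle inhibitor p21, had 294 and 264 CPM in KO and 286 and 272 CPM in WT and did not pass (log2 change of 0.02 ± 0.05, edgeR adjusted p = 0.842). Its KO libraries lay on either side of the WT libraries, and the sign turned without the first KO or the second WT library. Bbc3, which encodes the BH3-only protein Puma, had 17.0 and 11.2 CPM in KO and 17.0 and 18.1 CPM in WT and did not pass either (-0.37 ± 0.21, edgeR adjusted p = 0.168). In TE, 5 of the 45 target genes rose and 1 fell (11.1% and 2.22%, where 4.88% and 12.8% of all genes did). After median centring 8 target genes rose and 1 fell, where 756 of all 9093 genes rose and 883 fell. The largest rises in TE were those of Phlda3, an inhibitor of Akt (0.69 ± 0.17), and Sulf2, an extracellular sulfatase (0.30 ± 0.09), and the fall was that of Ercc5, an endonuclease of nucleotide excision repair (-0.94 ± 0.27). The TE call of Sulf2 was lost without the second WT library and that of Ercc5 without the first. Without the genes of chromosomes 6, 8, 11 and 16, footprints of 5 of 36 target genes were higher and 13 lower (13.9% and 36.1%), where 15% and 14.4% of 7062 genes were. With DESeq2, 4 of the 45 were higher and 8 lower, where DESeq2 called 8.48% of all genes higher and 6.92% lower.

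**Figure D5:**
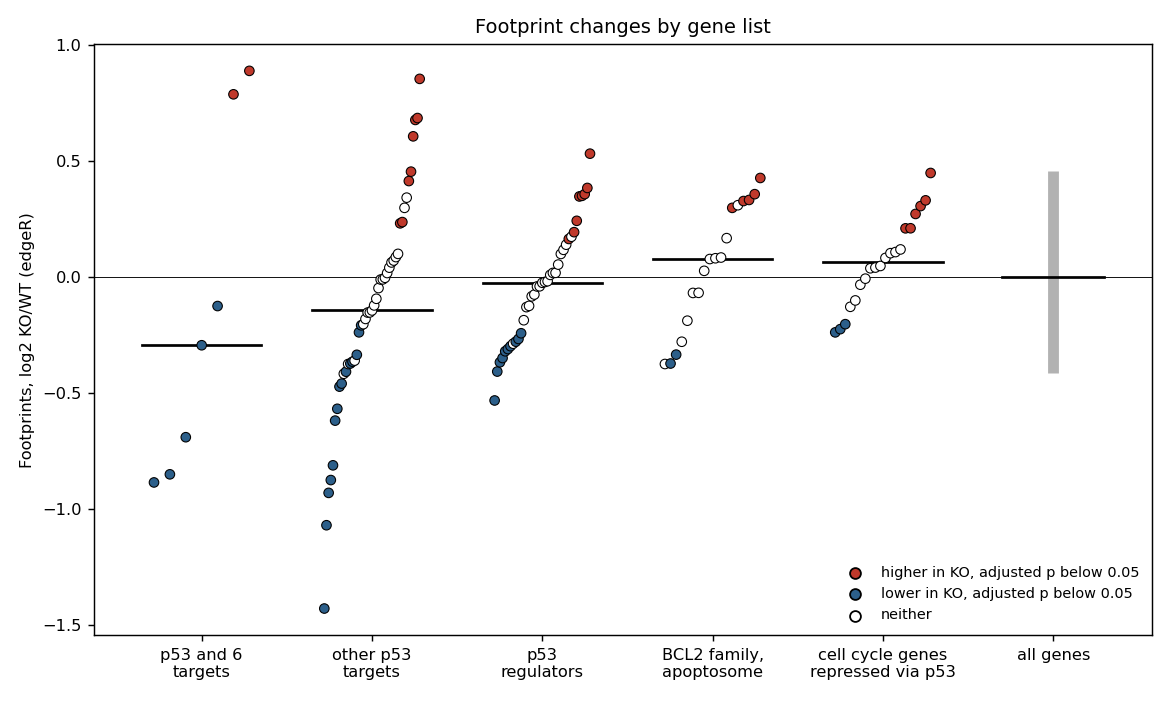
Footprint log2 change (KO over WT, edgeR) of every measured gene in 5 lists, each point 1 gene (red: higher, blue: lower, white: neither at an adjusted p of 0.05) and each line the list's median. The grey bar shows the 10th to 90th percentile of all genes. Plk2 is the lowest point among other p53 targets, whose median of -0.14 lies below that of all genes.

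Among 37 measured regulators of p53, footprints rose for 8 (21.6%) and fell for 10 (27.0%), where 18.3% and 16% of all genes did. The median log2 change of the regulators was -0.02, and 0.01 without the genes of chromosomes 6, 8, 11 and 16. After Mdm4, the largest falls were those of Hexim1, a transcription elongation inhibitor (-0.41 ± 0.10), Wrap53 (-0.37 ± 0.11) and the acetyltransferase gene Crebbp (-0.35 ± 0.06). Hexim1 and Wrap53 lie on chromosome 11, where Wrap53 is next to Trp53, and Crebbp lies on chromosome 16. The call of Wrap53 was lost without the second KO or the second WT library. The largest rises were those of Kmt5a, which methylates p53 and histone H4 (0.53 ± 0.10), the acetyltransferase gene Kat5 (0.38 ± 0.09), Daxx (0.36 ± 0.06) and Cdkn2a (0.35 ± 0.06). Cdkn2a, whose Arf product inhibits Mdm2, had 196 and 203 CPM in KO and 163 and 157 CPM in WT.

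TE fell for 11 of the 37 regulators (29.7%) and rose for 4 (10.8%), where 12.8% of all genes fell and 4.88% rose. After median centring 8 of the 37 regulators fell and 9 rose, where 883 of all 9093 genes fell and 756 rose. Falls of regulators then no longer outnumbered rises. Mdm4 had the largest fall in TE, -1.24 ± 0.17 (limma adjusted p = 1.09e-05), with input of 116 CPM in KO and 71.5 CPM in WT, followed by the DNA damage kinase gene Prkdc (-0.95 ± 0.24). The largest rises were those of the corepressor gene Trim28 (0.55 ± 0.04) and the methyltransferase gene Smyd2 (0.47 ± 0.15). The TE calls of Prkdc (first WT) and Smyd2 (either WT) were lost without the library named. Input was past 1.5-fold upward for 9 of the 37 and downward for 4 (24.3% and 10.8%, where 15.1% and 6.17% of all genes were). Without the genes of chromosomes 6, 8, 11 and 16, footprints rose for 7 of 29 regulators and fell for 6. These are 24.1% and 20.7%, where 15% and 14.4% of 7062 genes rose and fell. TE then rose for 4 and fell for 7, and the share over all genes left was not computed for TE.

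In the BCL2 family and apoptosome, 5 of 18 measured genes rose in footprints and 2 fell (27.8% and 11.1%, where 18.3% and 16% of all genes did), with a median log2 change of 0.08. Without the genes of chromosomes 6, 8, 11 and 16, 2 of 14 rose and 2 fell, each 14.3%, near the 15% and 14.4% of all genes left, and the median turned to -0.02. The rises included Bcl2l13 (0.43 ± 0.12), the protease gene Htra2 (0.36 ± 0.11) and Casp9, the protease that the apoptosome activates (0.33 ± 0.10). Bcl2l13 and Htra2 lie on chromosome 6. Mcl1 fell, and so did Apaf1, the scaffold of the apoptosome (-0.37 ± 0.13). Leaving out 1 library moved Apaf1 between -0.45 and -0.22, the weaker value without the second WT library. Its call was lost without either KO or the second WT library, and the calls of Htra2 and Casp9 without the second KO or the second WT library. Apaf1 and Bbc3 also belong to the target list. In TE, 0 of the 18 rose and 1 fell (0% and 5.56%, where 4.88% and 12.8% of all genes did). With DESeq2, 1 gene was higher and 1 lower in footprints (all genes 8.48% and 6.92%).

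Of 20 cell cycle genes that p53 represses through p21 and the DREAM complex, 6 rose in footprints and 3 fell (30% and 15%, where 18.3% and 16% of all genes did), with a median log2 change of 0.06. Without the genes of chromosomes 6, 8, 11 and 16, 5 of 15 rose and 1 fell (33.3% and 6.67%). Of the 7062 genes left in all, 15% rose and 14.4% fell. Cenpa, the centromeric histone H3 (0.45 ± 0.13), the cyclin genes Ccnb1 (0.33 ± 0.11) and Ccna2 (0.27 ± 0.05), and Cenpf, a kinetochore protein (0.31 ± 0.05), rose. The falls were those of Cdc20, an activator of the anaphase-promoting complex (-0.24 ± 0.07), the topoisomerase gene Top2a (-0.22 ± 0.04) and the mitotic kinase gene Aurkb (-0.20 ± 0.07). Top2a and Aurkb lie on chromosome 11. Leaving out 1 library moved Cdc20 between -0.38 (second KO left out) and -0.15 (first KO left out), and Aurkb likewise between -0.31 and -0.14. The calls of Cdc20 (first KO), Aurkb (first KO or first WT), and Cenpa and Ccnb1 (second KO or second WT) were lost without the library named. TE rose for 2 of the 20, Mybl2 (0.49 ± 0.06) and Mcm5 (0.20 ± 0.06), and fell for 5, led by Ttk (-1.11 ± 0.21) and Top2a (-1.10 ± 0.06). These are 10% and 25% of the list, where 4.88% and 12.8% of all genes rose and fell in TE, and the call of Mcm5 was lost without the first WT library. With DESeq2, footprints of 3 were higher and of 1 lower (all genes 8.48% and 6.92%).

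The genes whose pattern over all 6 libraries was closest to that of Trp53 were Zfp219, Tfe3 and Coil, at Euclidean distances of 0.151, 0.210 and 0.216 between log2(CPM + 1) values centred on each gene's mean. They were taken from 4546 genes at or above the median footprint level. Zfp219 had footprints of 56.3 and 43.8 CPM in KO and 63.0 and 61.2 CPM in WT and input of 85.4 CPM in KO and 148 CPM in WT. It was lower in KO in both measures and more so in input, though its footprint change of -0.32 was -0.12 without the second KO library, and was called neither then nor without either WT library. The 6 libraries hold a single contrast of genotype, and such likeness is a description only.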

How the data were processed

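Cells were treated with cycloheximide and ribosomal RNA was depleted, per the labels' protocols; the labels list polyA RNA as the molecule. The authors deposited footprints as raw read counts per gene, and footprints and input as CPM, per the file headers. The submitters' processing notes name Bowtie and mm10; no source used here gives the counting, annotation or gene filter. No gene had under 11 footprint counts in any library. The authors deposited TE as the ratio of footprint to input CPM, with the log2 ratio of genotype means and an unadjusted p-value. A second input column of each genotype, 2 in all, equalled the other for all 9093 genes and was left out.

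Footprint counts were tested over all genes with edgeR 4.0.16 (quasi-likelihood, TMM, library totals behind the deposited CPM; filterByExpr removed 0 genes). TE was tested with limma 3.58.1 (trend), genotype by library type, on log2(CPM + 1), which understates changes of low genes; a mean floor of 1 CPM removed 0 genes. Both used Benjamini-Hochberg adjustment at 0.05. DESeq2 1.42.0 was an alternative. The fits were also run on simulated data with input level between genotypes, a setting that does not cover the input differences seen here. Input intervals cover counting error only, since copied reads are not independent molecules. Replicates varied beyond counting noise (chi-square per degree of freedom 1.24 in KO, 1.44 in WT). RefSeq positions (GRCm38.p6) matched 9057 genes. Planned levels per coding length were not computed. Marker sums, the level of Fn1 beside other markers and the median footprint level therefore also depend on gene length. CPM is otherwise compared within a gene.

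The members and lists were chosen with earlier results of these data known. Named were the members, Mettl5, per list up to 4 called rises and 4 falls in footprints and up to 2 each in TE, Cdkn1a, Bbc3, Mdm4, Zmat3, defining markers and the 3 genes nearest Trp53. Some genes that this rule names are not reported here.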

Additional observations from a re-analysis of the deposited data

How the results depend on the processing

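Alternatives turned no member's direction in footprints or TE; the input ratio of Mdm2, near 0, was -0.04 after median centring. In footprints, the calls for Mdm2, Ccng1, Trp53inp1, Pmaip1 and Gdf15 held under all 10 alternatives with a test. DESeq2 lost Bax (-0.12, adjusted p = 0.257) and called 771 genes higher and 629 lower, against 1668 and 1458 by edgeR. Leaving out 1 library moved Trp53 between -0.36 and -0.20, Bax between -0.14 and -0.10, members called lower between 3 and 5, and all genes called between 1015 and 1480 higher and 920 and 1253 lower, the fewest without the second KO library. Cdkn1a, not called, ranged from -0.04 to 0.10, with -0.0425 when KO library 1 and -0.0230 when WT library 2 was left out. Less the chromosome median, Trp53 was at -0.11, Ccng1 at -0.66 and Gdf15 at 0.40. Median centring put the input ratio of Trp53 at -0.79, and 5 CPM added put that of Pmaip1 at 0.84. In TE, an added input spread of 0.2 left Trp53 (0.43, limma adjusted p = 0.82), Mdm2 (-0.73, 0.477) and Ccng1 (-0.45, 0.795) uncalled, so limma called 0 members in either direction, and 4 genes higher and 0 lower (with an unadjusted p under 0.05, 46 and 696). The authors' p-values, adjusted, left Trp53 (0.44, adjusted p = 0.149) and Mdm2 (-0.74, 0.057) uncalled, with 0 members higher and 1 lower, and 36 genes higher and 107 lower, against 444 and 1165 by limma. At an unadjusted p under 0.05 those p-values gave 1082 and 2002. An edgeR interaction on reads recovered from CPM (100% of input values whole within 0.01) called 1389 genes higher and 1800 lower, with 3 members higher and 3 lower. It added Trp53inp1 as lower (-0.71, edgeR adjusted p = 0.000275) and, as higher, Bax (0.24, 0.00444) and Gdf15 (0.58, 0.0073). Median centring added Bax (0.29, limma adjusted p = 0.017), with 2 members, 756 genes, 8 targets and 9 regulators higher and 883 genes and 8 regulators lower. TE of Pmaip1, not called, was -0.02 with 5 CPM and -0.57 with 0.1 CPM added, and -0.61 to -0.20 on leaving out 1 library. Leaving out 1 library moved TE of Trp53inp1 between -0.91 and -0.45 and of Bax between 0.17 and 0.22, members called higher between 1 and 2, and all genes called higher between 279 and 811, with Trp53inp1 called without the first KO library and Bax without the second. Replicate numbers did not pair the libraries (deviations of same-numbered libraries correlated at -0.0327 across genes), and with the replicate block the one changed member call was TE of Trp53inp1 (-0.68, limma adjusted p = 0.0244). For the lists in footprints, DESeq2 gave 4 higher and 8 lower of 45 targets and 4 higher and 7 lower of 37 regulators. It gave 1 higher and 1 lower of 18 BCL2 family genes and 3 higher and 1 lower of 20 cell cycle genes. Of all genes it called 8.48% higher and 6.92% lower. Leaving out 1 library, which leaves 1 in its genotype, gave fewer lower targets each time. It raised no footprint count of these lists in either direction and reduced several of them. An alternative chosen after seeing the data left out chromosomes 6, 8, 11 and 16. In footprints, 5 of 36 targets were higher and 13 lower, and 7 of 29 regulators were higher and 6 lower. Of 14 BCL2 family genes 2 were higher and 2 lower, and of 15 cell cycle genes 5 were higher and 1 lower. Of the 7062 genes left, 15% were higher and 14.4% lower. In TE, 4 targets were higher and 1 lower, 4 regulators higher and 7 lower, and 1 cell cycle gene higher and 4 lower. BCL2 family genes were at 0 in both directions in TE. The TE share over all genes left was not computed. Counts can fall since fewer genes remain. The cause of the other changes was not tested. Depth limits Trp53inp1, Pmaip1 and Gdf15 most, with at most 170 reads in a KO library.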
